A study of Mus musculus with 28 samples.

Results

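Tshb, Trhr, Dio1, Dio2, Thra and Thrb, 6 of the 32594 genes counted in whole mouse pituitary, were chosen by name as genes of the thyrotrope and of thyroid hormone handling. RNA of 28 C57BL/6J mice, labelled 8 weeks old, was sequenced to ask how 12 h of paradoxical sleep deprivation (PSD) alters the pituitary response to a later stressor in each sex. PSD kept mice on small platforms above water, which wakes an animal that loses muscle tone, and controls stayed in their home cages. Mice of the restraint groups were held for 20 min in a restrainer and killed 10 min after its end, and pituitaries were taken 18 h after PSD ended. Females came as 4 home cage controls, 4 mice with restraint, 4 with PSD and 4 with PSD + restraint, and males as 4 controls, 2 with restraint, 3 with PSD and 3 with PSD + restraint. All mice, controls included, had been placed in the PSD tank daily beforehand and were group-housed by sex. RNA came from whole pituitary, so fewer cells of a type and less RNA per cell cannot be told apart in any value that follows.

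Thyrotropes of the anterior lobe secrete thyrotropin (TSH), a dimer of the beta subunit encoded by Tshb and the alpha subunit encoded by Cga, which gonadotropins share. Hypothalamic TRH acts on the receptor encoded by Trhr to release TSH, which drives thyroid hormone output from the thyroid gland. The deiodinases encoded by Dio1 and Dio2 convert the prohormone T4 to active T3, which binds nuclear receptors encoded by Thra and Thrb, and the Thrb product carries much of the feedback that lowers Tshb.

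In GENCODE M21 (GRCm38, the assembly named mm10 by the submitters), all 6 are protein-coding genes. Tshb lies at chr3:102775465-102782718 on the minus strand, Trhr at chr15:44196135-44235912 on the plus strand, Dio1 at chr4:107291465-107307169 on the minus strand and Dio2 at chr12:90724552-90738438 on the minus strand. Thra lies at chr11:98740638-98769006 and Thrb at chr14:17660261-18038090, both on the plus strand. Thra and Nr1d1, on opposite strands, share 263 exonic bases where they meet, 5.7% of the exonic length of Thra, and Dio2 shares 100 exonic bases with the noncoding gene Gm26512. The strand setting of the counting is not given in the sources used here, so reads from these shared bases cannot be told apart.

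Promoter sequence is shown for the 2 TSH subunit genes, for Dio2, and for both RefSeq start sites of Thrb, because the counts are per gene and pool the transcripts from both starts. The windows are RefSeq sequence of GRCm38.p6 up to 250 bases before the start site, read 5′ to 3′ on the gene's strand. Bases that GENCODE annotates as exon of the same gene were removed, and the longest stretch left is shown. Capitals mark matches on either strand to 6 motifs: TATAAA, the TATA box; TGACGTCA, the cAMP response element (CRE); AGGTCA, the nuclear receptor half-site; the DR4, a direct repeat of that half-site to which thyroid hormone receptors bind; a POU1F1-like motif spelled TATNCAT; and the motif of factors in the GATA family, which is spelled AGATAA.
Tshb, chr3:102782719-102782964, minus strand: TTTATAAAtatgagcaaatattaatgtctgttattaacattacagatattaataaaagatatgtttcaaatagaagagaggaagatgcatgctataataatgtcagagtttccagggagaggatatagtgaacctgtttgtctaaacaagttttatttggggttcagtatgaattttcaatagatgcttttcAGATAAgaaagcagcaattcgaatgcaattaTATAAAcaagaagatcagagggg
Cga, chr4:34893529-34893778, plus strand: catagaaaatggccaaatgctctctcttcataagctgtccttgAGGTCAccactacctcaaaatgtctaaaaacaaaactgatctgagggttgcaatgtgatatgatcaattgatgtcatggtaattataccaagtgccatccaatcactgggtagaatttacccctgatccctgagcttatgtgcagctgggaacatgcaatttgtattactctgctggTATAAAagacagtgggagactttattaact
Dio2, chr12:90739039-90739288, minus strand: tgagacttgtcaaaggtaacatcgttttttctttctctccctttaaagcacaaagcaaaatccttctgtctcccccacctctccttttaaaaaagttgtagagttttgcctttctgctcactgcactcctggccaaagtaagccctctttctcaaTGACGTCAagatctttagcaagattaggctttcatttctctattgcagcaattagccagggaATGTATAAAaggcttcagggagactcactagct
Thrb, first start, chr14:17660710-17660891, plus strand: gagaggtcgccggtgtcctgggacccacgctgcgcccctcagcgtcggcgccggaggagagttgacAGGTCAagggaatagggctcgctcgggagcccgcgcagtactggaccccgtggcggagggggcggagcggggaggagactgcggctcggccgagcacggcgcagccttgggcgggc
Thrb, second start, chr14:17981394-17981528, plus strand: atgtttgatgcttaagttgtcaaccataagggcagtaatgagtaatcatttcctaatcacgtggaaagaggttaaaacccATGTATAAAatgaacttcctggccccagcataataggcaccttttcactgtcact

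The Tshb window held a TATA box 27 bases before the start and a GATA match 58 bases before it, and the 8 capitals at its far end are TATAAA on each strand, overlapping. Cga had a TATA box 30 bases before the start and a half-site. Dio2 had the full CRE 95 bases before its start, and its TATA box overlapped a POU1F1-like match. The second Thrb window held the same overlapping pair, with the TATA match 167 bases before the start. The first Thrb window held 1 half-site and no TATA box. Over 32851 mouse promoters of 250 bases, 12.368% held a TATA box, 1.546% the CRE, 14.024% the half-site, 7.924% the POU1F1-like motif, 9.988% the GATA motif and 0.015% the DR4, which no window printed here held. Those shares are of full windows with no exon removed, so they do not match the shorter windows like for like. The Dio1 window of 249 bases, not printed, held none of the 6 motifs. These are letter matches only, and no binding was measured.

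Depth per mouse ran from 14024465 to 52948531 counts with a median of 33389717, so that the 6 genes had between 51 (Dio1, lowest mouse) and 30485 counts (Tshb, highest mouse). Tshb, Trhr and Cga, the 3 thyrotrope markers, were counted in all 28 mice. The pars tuberalis marker Mtnr1a stayed at or below 0.260 CPM (counts scaled to library size with TMM factors). Genes of other cells or tissues stood out in 3 libraries. Male control 1 had a melanotrope marker sum (Pax7, Oacyl and Pcsk2) of 377 CPM where the other male controls had 1347 to 1726. Female PSD 1 had the highest forebrain marker sum, 203 CPM. Female PSD 3 had 5335 CPM of Ttr where no other mouse passed 6.28. Results that turn on these mice are given without them too. Cage mates shared a PSD tank in the paper's protocol. Which mice shared a cage or tank is not given in the sources used here. The p-values measure the spread between these mice and treat them as independent. Where mice of a group came from the same tank or cage, its effect cannot be told apart from treatment.

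Per kilobase of exon, averaged over all mice, Tshb was the most abundant of the 6 at 81.1 ± 24.2 CPM per kb (SD, n = 28). Thra followed at 24.6 ± 2.11 CPM per kb, then Thrb at 14.7 ± 5.42, Dio2 at 13.4 ± 2.37, Dio1 at 2.44 ± 1.06 and Trhr at 1.88 ± 0.674 CPM per kb (SD, n = 28 each). The lowest Tshb mouse, at 45.0, lay above the highest Thra mouse, at 29.2, whereas Thrb and Dio2 overlapped, as did Dio1 and Trhr. In males Dio2 averaged 13.3 CPM per kb against 11.3 for Thrb, and Trhr 2.39 against 2.06 for Dio1. The male order of both pairs depended on the length used: per kb of mean transcript length Thrb, at 40.04, lay above Dio2, at 13.3, and Dio1, at 5.64, above Trhr, at 4.10. Cga, the gene of the shared alpha subunit, had 3632 ± 1053 CPM per kb (SD, n = 28).

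**Figure D1:**
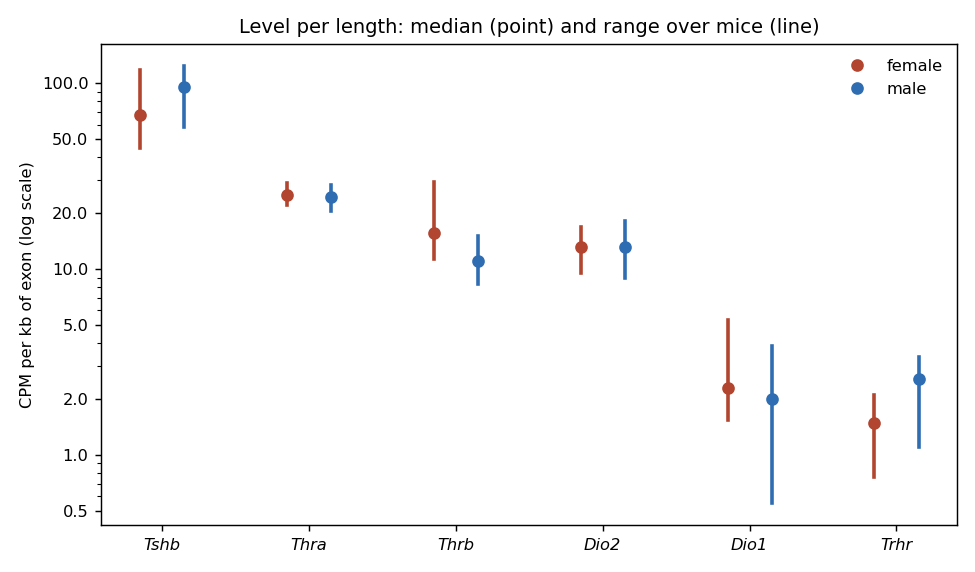
Level per exon length of the 6 genes, with CPM per kb of exon on a log axis, the median over 16 females (red) or 12 males (blue) as a point and the range as a line. Tshb lies above the other 5 genes in every mouse, and the medians of Tshb and Trhr are higher in males whereas that of Thrb is higher in females.

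Treatment contrasts were tested with edgeR's quasi-likelihood test. A gene counted as called when its p, adjusted over all genes tested by the Benjamini-Hochberg method, did not pass 0.05 and its fitted level was at least 25% above the reference or the reference 25% above it. Against home cage controls, restraint in females gave 0 calls among the 6 genes (0.543% of all genes tested were called), PSD gave 0 (0.0277%) and PSD + restraint gave 0 (2.2%). Between restrained females with and without PSD the count was 0 (0.0332%), and between PSD females with and without restraint it was 0 (0.941%). In males restraint gave 0 calls among the 6 (0.296%), PSD gave 0 (0.00547%) and PSD + restraint gave 0 (2.56%). The male contrast of PSD among restrained mice had 0 calls (0.00547%), and that of restraint among PSD mice had 0 (0.285%). At an unadjusted p under 0.05 these 10 contrasts held 11 results: Thrb in 5 of them, Dio1 in 3 and Dio2 in 3. Over all genes tested, that level was reached by 927 of 18271 genes (restraint in males) to 3649 of 18059 (PSD + restraint in females). DESeq2 called Thrb in 2 of the 10, PSD and PSD + restraint in females, where it called 405 and 633 genes in all. It called no other member in the 10.

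With both sexes in 1 model, 0 of the 6 genes were called after restraint (1.14%) and 0 after PSD (0.671%), and 1, Thrb, was called after PSD + restraint (5.46%). Between restrained mice with and without PSD the count was 0 (0.0951%), and between PSD mice with and without restraint 0 (2.01%). The interaction of PSD and restraint called 0 of the 6 and 0% of all genes, with 743 genes but none of the 6 at an unadjusted p under 0.05, and DESeq2 also called 0 genes. These contrasts share their control mice, so they are not independent of each other. The median log2 fold change of the 6 genes was 0.07 after PSD and 0.08 after PSD + restraint in all mice, against medians of 0.00678 and 0.00130 over all genes tested.

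**Figure D2:**
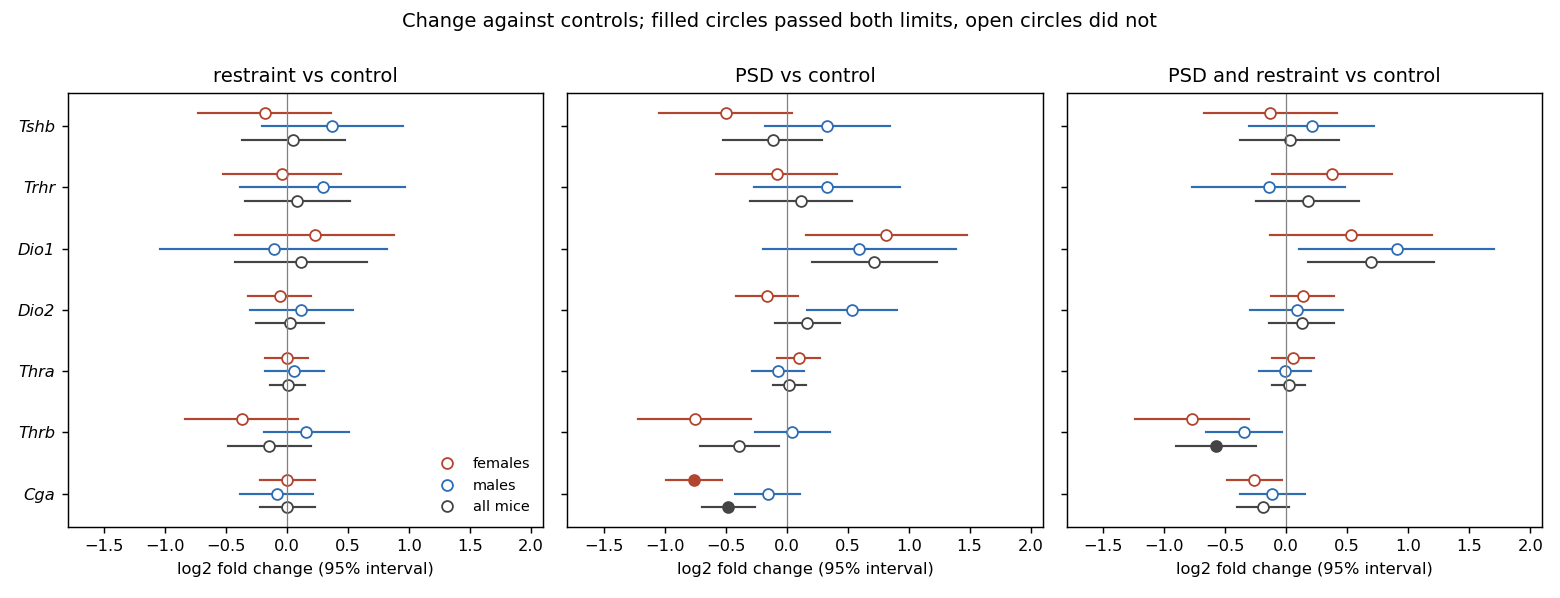
Log2 fold change against home cage controls with 95% intervals for the 6 genes and Cga, fitted in females (red), males (blue) and all mice (grey), with filled circles for values past both limits. Filled circles are Thrb after PSD + restraint in all mice and Cga after PSD in females and in all mice, and the intervals of Thra are the narrowest.

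Thrb, the gene of thyroid hormone receptor beta, was the 1 member called in a treatment contrast. Female controls had 153, 185, 138 and 218 CPM, and females with PSD + restraint had 85.1, 103, 121 and 94.2 CPM. All 4 treated females lay below all 4 controls. Here and below, such separation of small groups is a description, since its share over all genes was not counted. Male controls had 81.8, 88.3, 94.5 and 79.1 CPM, and males with PSD + restraint had 61.7, 68.0 and 72.7 CPM, again with no overlap. Over all mice Thrb fell by 0.58 on the log2 scale after PSD + restraint (standard error 0.16, edgeR adjusted p = 0.0190). The sex-wise values were -0.77 in females (standard error 0.22, adjusted p = 0.0688) and -0.35 in males (standard error 0.15, adjusted p = 0.240), and neither passed the limit. The difference between these 2 values was itself not called, at -0.43 (95% interval -1.04 to 0.17, edgeR adjusted p = 0.789). In females alone the value passed the limit when restrained female 2 or 4 was left out (-0.78 and -0.77, adjusted p from 0.0212 to 0.0481), and with DESeq2 (adjusted p = 0.00959). Without female control 4, the highest of its group, the value over all mice was -0.48 with an adjusted p of 0.0519. Without the 3 mice that stood apart it was -0.62 (adjusted p = 0.0137).

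Females with PSD alone had 99.0, 83.5, 89.0 and 137 CPM of Thrb. Each was lower than every control female, the highest at 137 CPM beside a lowest control of 138. The log2 fold change was -0.76 (standard error 0.22, edgeR adjusted p = 0.128), and it passed the limit without PSD female 4, at -0.93 (adjusted p = 0.0395). Males with PSD had 111, 86.2 and 68.0 CPM and straddled their controls, with a fitted change of 0.05 on the log2 scale (95% interval -0.26 to 0.35). The female value minus the male value was -0.80 (95% interval -1.40 to -0.20, edgeR adjusted p = 0.363), so a sex difference was not called. Restraint alone left 116, 94.0, 117 and 207 CPM in females and 108 and 82.8 CPM in males, overlapping the controls of each sex. Among restrained males, all 3 with PSD lay below both without it, at a fitted log2 change of -0.50 (standard error 0.17, adjusted p = 0.352). In this contrast of 3 against 2 mice, Trhr (lower) and Dio1 (higher) did not overlap either.

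Levels of intermediate lobe markers, and of the lactotrope marker Prl, are given beside Thrb. Prl had 159082 to 231705 CPM in control females, 96746 to 170264 in PSD females and 133921 to 155694 in PSD + restraint females. In males it had 34768 to 41601 CPM in controls, 37888 to 41203 after PSD and 30866 to 35724 after PSD + restraint. Its log2 fold change was -0.67 after PSD and -0.38 after PSD + restraint in females, called in neither. Its correlation with Thrb was not computed. The melanotrope marker sum was 1193 to 1819 CPM in control females, 1718 to 4220 CPM in PSD females and 1765 to 2866 CPM in PSD + restraint females. In males it was 377 to 1726 CPM in controls, 1737 to 2449 CPM after PSD and 1789 to 3309 CPM after PSD + restraint. Of the 3 melanotrope markers, edgeR called 2 after PSD + restraint in all mice and none in these contrasts within a sex. Across the 28 mice, each set against the mean of its sex, log2 CPM of Thrb had a Pearson r of -0.59 and a Spearman rho of -0.73 with this sum, with r of -0.78 in the 16 females and -0.43 in the 12 males. Without male control 1, r was -0.77 over 27 mice. Differences between treatments were left in these correlations, which do not show the relation within a treatment. With a score of neurointermediate lobe genes (Pax7, Oacyl, Pcsk2, Rax and Col25a1) as a covariate, the Thrb value after PSD + restraint was -0.49 over all mice (edgeR adjusted p = 0.113) and -0.40 in females (adjusted p = 0.481).

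Thra, the gene of thyroid hormone receptor alpha, lay between 94.4 and 135 CPM in all 28 mice. Its group means ran from 107 CPM in PSD males to 119 CPM in PSD females. Every treatment contrast of Thra overlapped its reference group, and the log2 fold changes lay between -0.07 and 0.10. After PSD + restraint in all mice the value was 0.02 (95% interval -0.12 to 0.16, edgeR adjusted p = 0.894), the narrowest interval of the 6 genes. Nr1d1, the clock repressor gene on the other strand, had 20.9 to 35.0 CPM in control females and 16.9 to 20.4 CPM in PSD + restraint females. Over all mice Nr1d1 fell by 0.47 on the log2 scale after PSD + restraint (standard error 0.10, adjusted p = 0.00272), beside no called change of Thra.

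**Figure D3:**
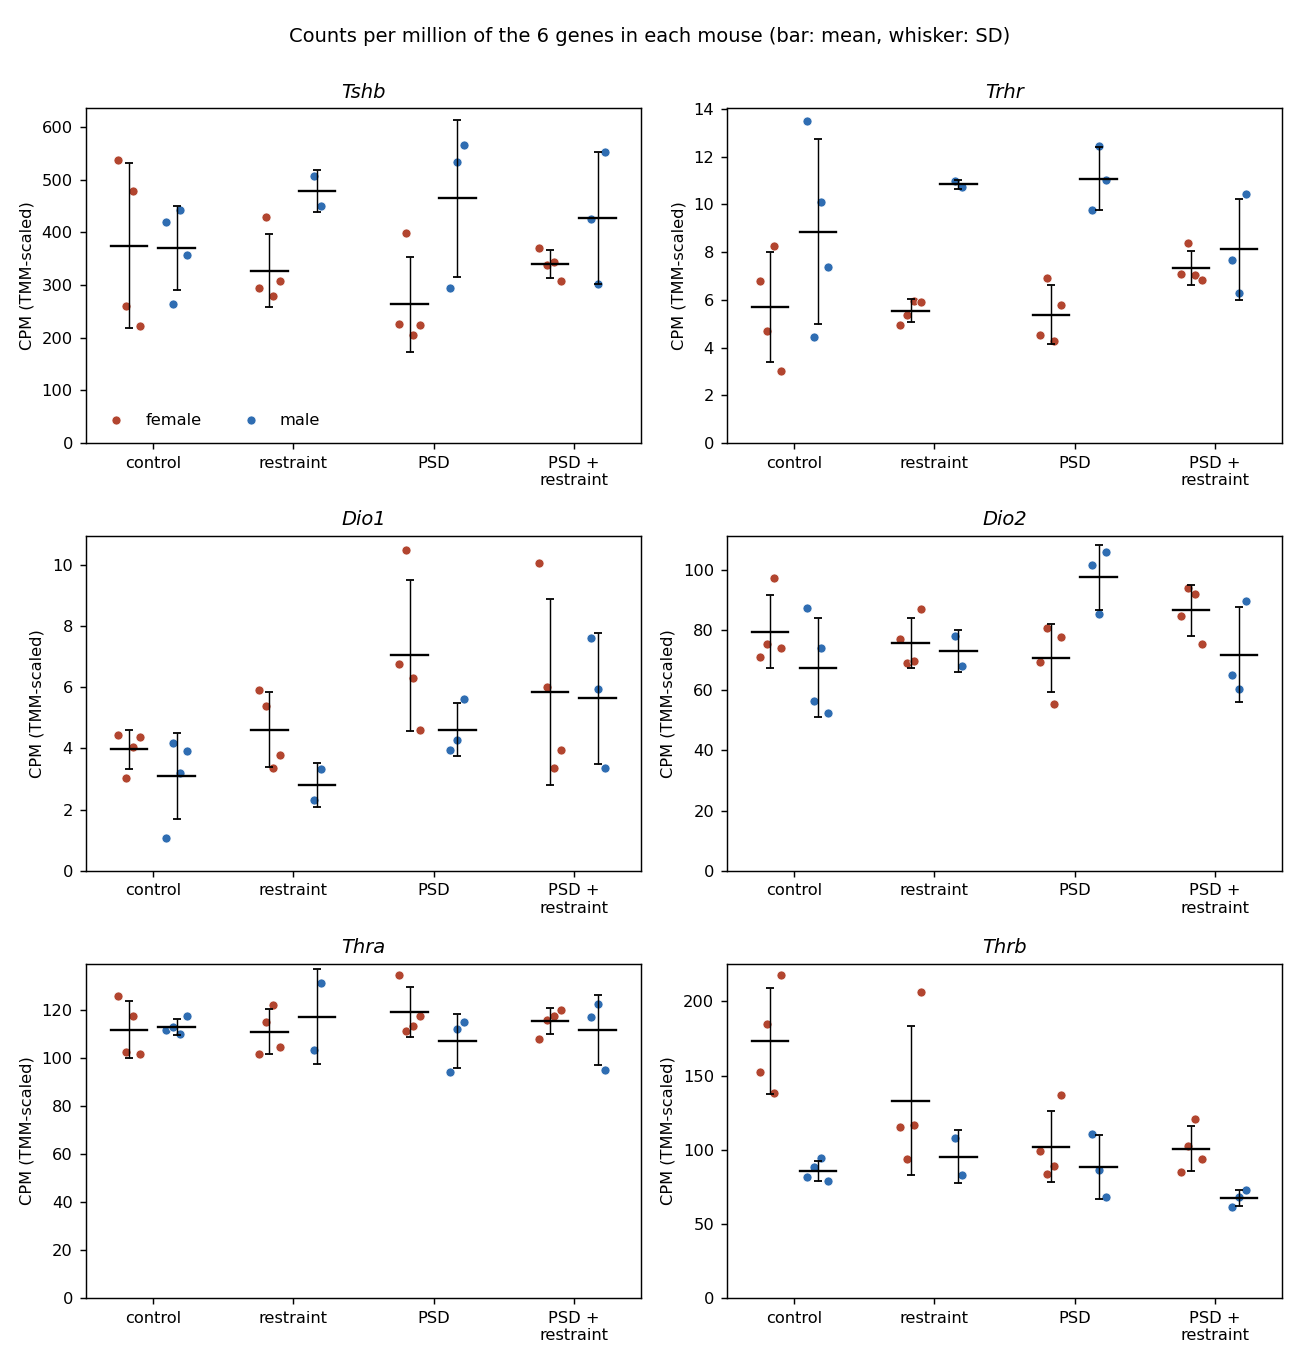
CPM of each of the 6 genes in every mouse by treatment, females in red and males in blue, with the group mean as a bar and the SD as a whisker (n = 2 to 4). Thrb lies between 138 and 218 CPM in control females, and Thra stays between 94.4 and 135 CPM in every mouse.

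Dio1, the type 1 deiodinase gene, was counted at 4.43, 3.03, 4.05 and 4.36 CPM in control females. PSD females had 6.75, 10.48, 6.32 and 4.62 CPM, all above all controls. The fitted log2 change was 0.81 (standard error 0.31, edgeR adjusted p = 0.176). Restrained females had 5.91, 5.39, 3.38 and 3.80 CPM. Females with PSD + restraint had 10.1, 6.01, 3.35 and 3.95 CPM and overlapped the controls. Control males had 1.08, 4.17, 3.20 and 3.91 CPM, PSD males 3.96, 4.28 and 5.62, and PSD + restraint males 7.63, 5.94 and 3.35 CPM. Over all mice the log2 fold change was 0.72 after PSD (standard error 0.25, adjusted p = 0.144) and 0.70 after PSD + restraint (standard error 0.25, adjusted p = 0.0717). Neither passed the limit, and the second did so, at 0.77 to 0.82, when any one of PSD + restraint female 3, female 4 or male 3 was left out (adjusted p from 0.0338 to 0.0497). DESeq2 called Dio1 after PSD + restraint in all mice (adjusted p = 0.0410), where it called 870 genes in all. Without the 3 mice that stood apart the edgeR value was 0.56 (adjusted p = 0.117).

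Over mice of all treatments together, the Dio1 count rose with the intermediate lobe markers. Against the melanotrope marker sum, both on a log2 scale and set against the mean of the sex, Dio1 had a Pearson r of 0.90 and a Spearman rho of 0.86 over 28 mice, with r of 0.82 in the 16 females and 0.97 in the 12 males. Without male control 1, which was lowest in both, r was 0.85. Differences between treatments were left in these values. The corticotrope marker sum (Tbx19, Crhr1 and Avpr1b) was also lowest in male control 1, at 91.2 CPM. It was highest in PSD female 2, at 188 CPM, the mouse with the most Dio1. Restrained male 3, with 3.32 CPM of Dio1, had a sum of 186 CPM. The correlation of Dio1 with the corticotrope sum was not computed. With the neurointermediate lobe score as a covariate, the Dio1 value was 0.22 after PSD in females (edgeR adjusted p = 0.772), -0.07 after PSD + restraint in females (adjusted p = 0.952) and 0.10 after PSD + restraint in all mice (adjusted p = 0.813).

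**Figure D4:**
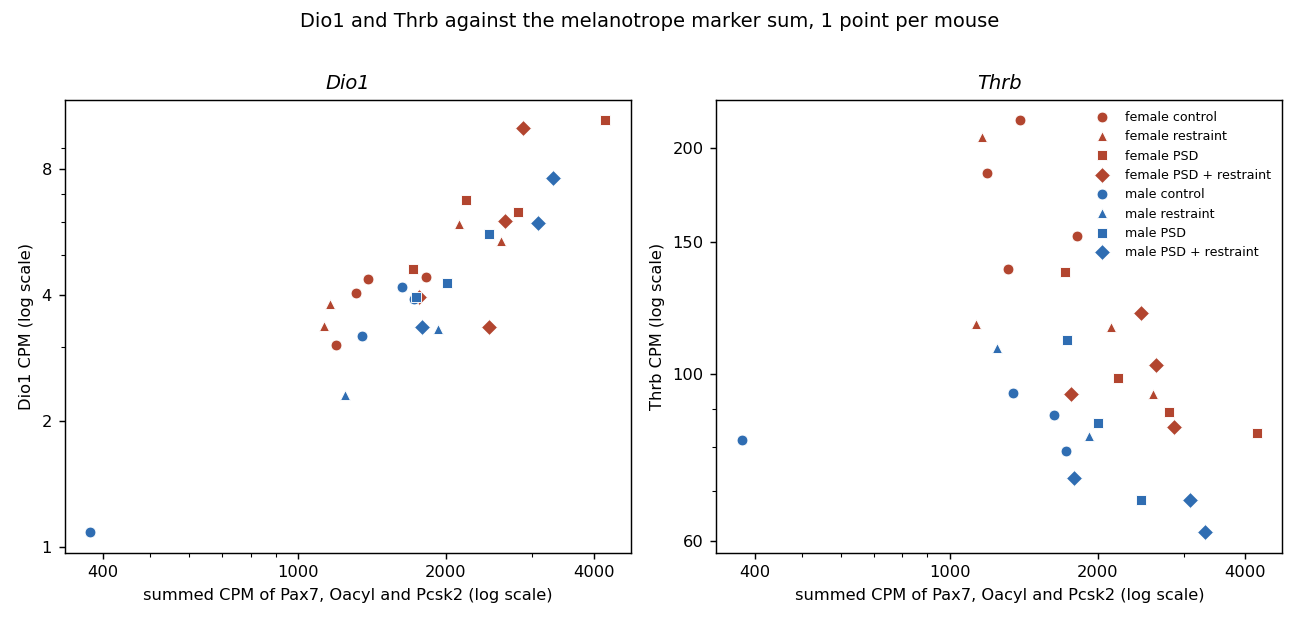
Dio1 (left) and Thrb (right) CPM against the summed CPM of Pax7, Oacyl and Pcsk2, both on log axes, with 1 point per mouse, color for sex and shape for treatment. Dio1 climbs with the marker sum from male control 1, at 1.08 CPM, upward, whereas Thrb is lower where the sum is high.

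Dio2, the type 2 deiodinase gene, lay between 52.3 and 106 CPM. Control males had 87.5, 56.3, 74.2 and 52.3 CPM and PSD males 102, 85.3 and 106 CPM, with overlap at control 1. The log2 fold change after PSD in males was 0.54 (standard error 0.17, edgeR adjusted p = 0.405). PSD females had 69.4, 80.6, 55.4 and 77.7 CPM against 71.0, 75.3, 97.5 and 74.2 CPM in controls, a value of -0.16 (standard error 0.12, adjusted p = 0.480). The female value minus the male value was -0.69 (95% interval -1.15 to -0.24, edgeR adjusted p = 0.302), and this sex difference was not called. Males with PSD + restraint, at 65.2, 60.3 and 89.8 CPM, overlapped both their controls and the PSD males.

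Tshb, the TSH beta subunit gene, was called in no treatment contrast and spread widely among control females, with a coefficient of variation of 41.8%. Control females had 538, 260.5, 478 and 222 CPM and PSD females 226, 399, 205 and 224 CPM. The ranges overlapped, and the log2 fold change was -0.50 (95% interval -1.05 to 0.05, edgeR adjusted p = 0.288). Females with restraint had 295, 430, 279 and 307 CPM, and those with PSD + restraint 371, 338, 344 and 307 CPM, inside the control range in both groups. Control males had 419.9, 265, 442 and 357 CPM, and both restrained males, at 507 and 450.1, lay above them, at a fitted log2 change of 0.37 (standard error 0.27, adjusted p = 0.9998). PSD males had 294, 535 and 566 CPM and PSD + restraint males 426, 303 and 553 CPM, each spanning the control mean of 371 ± 79.6 CPM (SD, n = 4).

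Cga, read beside Tshb as the gene of the other TSH subunit, was called lower after PSD in females. Control females had 3600, 2993, 3736 and 2681 CPM, and PSD females had 2051, 1825, 1944 and 1836 CPM. All 4 PSD females lay below all controls, and Cga fell by 0.76 on the log2 scale (standard error 0.11, edgeR adjusted p = 0.0257). PSD females with restraint had 2618, 2564, 2948 and 2659 CPM, higher than every PSD female without it by 0.50 on the log2 scale (standard error 0.11, adjusted p = 0.0343). Control males had 5451, 4260, 4324 and 4553 CPM and PSD males 3607, 4107 and 4732 CPM, which overlapped. In males the PSD value was -0.16 (standard error 0.12, adjusted p = 0.767), and the female minus male difference of -0.60 was not called (95% interval -0.95 to -0.25, edgeR adjusted p = 0.302). Over all mice Cga fell by 0.48 after PSD (standard error 0.11, adjusted p = 0.0317). The female PSD call was lost when control 1, 2 or 3, PSD mouse 2 or 3, or PSD + restraint mouse 1 or 2 was left out, with adjusted p from 0.0505 to 0.126 and values from -0.79 to -0.69. Without female PSD 1 and 3, which stood apart, it was -0.83 (adjusted p = 0.150). The call was also lost with the neurointermediate lobe score as a covariate (-0.71, adjusted p = 0.104), with the forebrain score (-0.79, adjusted p = 0.0572) and with only the groups compared (-0.76, adjusted p = 0.120). The call between PSD females with and without restraint was lost when any 1 of these 8 mice was left out, with values from 0.45 to 0.53 and adjusted p from 0.0545 to 0.118, and without PSD females 1 and 3 together (0.56, adjusted p = 0.141). Over all mice the PSD call was lost without male control 1, female control 2 or 3, or PSD female 1, 2 or 3, with values from -0.48 to -0.43 and adjusted p from 0.0505 to 0.0878. It was also lost with the lobe score (-0.40, adjusted p = 0.110), with only the groups compared (-0.48, adjusted p = 0.0800) and without the 3 mice that stood apart (-0.40, adjusted p = 0.249). The gonadotrope markers Lhb, Fshb, Gnrhr and Nr5a1 summed to 625 to 784 CPM in control females and 560.4 to 891 CPM in PSD females, overlapping. The median log2 fold change of these 4 markers was -0.36 after PSD in females, against 0.00840 over all genes, with 0 called. In GENCODE, 305 exonic bases of Cga, 32.0% of its exonic length, are shared with Platr9 on the opposite strand, and alpha subunit RNA cannot be assigned to thyrotropes or gonadotropes here.

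Trhr, the TRH receptor gene, was the least abundant per length and was read from 86 to 709 counts per mouse. Control females had 6.80, 4.70, 8.26 and 3.02 CPM and PSD females 4.52, 6.93, 4.28 and 5.77 CPM, with full overlap. Restrained females had 4.93, 5.37, 5.94 and 5.90 CPM, and all 4 PSD + restraint females lay above them, at 7.08, 8.40, 7.04 and 6.84 CPM. The fitted log2 change was 0.42 (standard error 0.23, edgeR adjusted p = 0.427). In males the same groups were ordered the other way, 11.0 and 10.7 CPM with restraint alone and 7.66, 6.27 and 10.4 CPM with PSD + restraint, a value of -0.43 (standard error 0.34, adjusted p = 0.682). Neither value passed the limit, and the difference between the sexes was not tested for this contrast. Control males had 13.5, 4.42, 10.1 and 7.37 CPM and PSD males 9.78, 12.4 and 11.0 CPM, which overlapped.

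Sex was the factor with the most member calls. In the model of all mice, with treatment as a term, 3 of the 6 genes were called between females and males, where 14.9% of all genes tested were called, 1346 higher and 1476 lower in females. Thrb was higher in females by 0.59 on the log2 scale (standard error 0.12, edgeR adjusted p = 2.82e-04), with 83.5 to 218 CPM (median 116) in 16 females against 61.7 to 111 CPM (median 82.3) in 12 males. Female and male controls did not overlap, nor did the PSD + restraint groups, while the restraint groups and the PSD groups overlapped. Trhr was lower in females, at a fitted log2 change of -0.69 (standard error 0.15, adjusted p = 7.28e-04), with 3.02 to 8.40 CPM (median 5.92) against 4.42 to 13.5 CPM (median 10.3) in males. The sexes did not overlap with restraint or with PSD alone, and overlapped in controls and after PSD + restraint.

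Tshb differed by -0.40 between females and males (standard error 0.15, edgeR adjusted p = 0.0361), with 205 to 538 CPM (median 307) in females and 265 to 566 CPM (median 434) in males. Tshb lost this call when any 1 of 10 mice was left out: female controls 2 and 4, restrained female 1, restrained male 2, PSD females 1, 3 and 4, PSD males 2 and 3, and PSD + restraint male 3 (adjusted p from 0.0503 to 0.0723, values from -0.38 to -0.34). Without the 3 mice that stood apart it was -0.32 (adjusted p = 0.120), and with the forebrain score as a covariate -0.35 (adjusted p = 0.0865). Dio1 stood at 0.40 (standard error 0.19, adjusted p = 0.1004), Dio2 at 0.03 (95% interval -0.17 to 0.23) and Thra at 0.03 (95% interval -0.07 to 0.13), none called. Dio1 was called, at 0.48 (adjusted p = 0.0485), when PSD + restraint male 1 was left out. Hormone transcripts of other cells also differed by sex, with 96746 to 231705 CPM of Prl in females against 30866 to 45864 CPM in males and a somatotrope marker sum (Gh and Ghrhr) of 60060 to 121856 CPM against 109861 to 226447 CPM. Their part in the sex differences of the 6 genes was not tested.

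No member was called when the response itself was compared between the sexes. Female minus male response called 0 of the 6 genes for restraint (0% of all genes, 804 at an unadjusted p under 0.05), 0 for PSD (0%, 2038 genes) and 0 for PSD + restraint (0%, 1363 genes). DESeq2 called 0, 16 and 8 genes in these contrasts, and none of the 6. For PSD, Tshb, Dio2 and Thrb had an unadjusted p under 0.05, all with the lower value in females. The Tshb difference was -0.83 (95% interval -1.62 to -0.04, edgeR adjusted p = 0.449).

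Of the regulators read beside the 6 genes, Nmb, the gene of neuromedin B, a peptide known to inhibit TSH release, was called in both sexes. Control females had 3.85 to 6.94 CPM and PSD females 12.1 to 27.7 CPM, with no overlap, and Nmb rose by 1.85 on the log2 scale (standard error 0.29, edgeR adjusted p = 0.0317). Calls over all genes in this contrast went from 5 to 0 without PSD females 1 and 3. They were also 0 with the forebrain score and with only the groups compared, so this Nmb call was lost in each. After PSD + restraint Nmb rose by 1.42 in females (adjusted p = 0.0155) and by 1.39 in males (adjusted p = 0.0126), from 6.64 to 9.75 CPM in control males to 13.1 to 24.2 CPM. The gene of its receptor, Nmbr, stayed at or below 0.248 CPM and was too low to test. Among 15 genes of signals to thyrotropes, of which 12 were tested in all mice, Nmb rose after PSD, and Nmb and Tshr rose after PSD + restraint, Tshr by 0.63 (standard error 0.19, adjusted p = 0.0264) within 0.61 to 1.96 CPM. The median of that list was 0.30 after PSD and 0.19 after PSD + restraint, against 0.00678 and 0.00130 over all genes. Medians of marker lists in the same contrasts were 0.68 and 0.86 for 3 melanotrope markers and 0.49 and 0.09 for 6 forebrain and olfactory markers. They were 0.44 and 0.46 for 4 hypothalamic neuron markers, -0.33 and -0.27 for Prl and -0.22 and -0.16 for 2 somatotrope markers. For 4 gonadotrope markers they were -0.23 and 0.04, and for 4 endothelial markers -0.18 and -0.07. Lists not named here went both ways after PSD. Of the markers in these named lists, edgeR called 2, both melanotrope markers after PSD + restraint. The part of the marker lists in the values of the signal list was not tested.

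Among 12 thyrotrope hormone and transcription factor genes, Cga fell after PSD in all mice and 0 were called after PSD + restraint. Of 16 receptor partners, 0 were called in either contrast. Rxrb, the gene of a retinoid X receptor that pairs with thyroid hormone receptors, passed the p limit after PSD + restraint but not the fold limit, at -0.19 (edgeR adjusted p = 0.00661). Of 8 genes for selenoprotein synthesis and deiodinase turnover, 0 were called in all mice. Usp33, whose product removes ubiquitin from type 2 deiodinase, stood at -0.16 after PSD + restraint (adjusted p = 0.0243), under the fold limit, and Sephs2, needed to make selenocysteine, fell by 0.34 in PSD + restraint females (adjusted p = 0.0470). Dio3, the gene of the inactivating deiodinase, stayed at or below 0.312 CPM.

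Of 7 T3-responsive genes, 0 were called after PSD, restraint or both in all mice, with medians of 0.03, 0.06 and -0.00450, against 0.00678, 0.000555 and 0.00130 over all genes. Nrgn had the smallest p after PSD + restraint, at 1.05 (standard error 0.39, edgeR adjusted p = 0.0804), and Klf9 after PSD, at -0.21 (adjusted p = 0.172). The forebrain marker sum was 35.5 to 102 CPM in PSD + restraint females and 37.5 to 54.0 CPM in control females. In males it was 23.7 to 34.2 CPM after PSD + restraint and 27.8 to 50.3 CPM in controls. Its part in the Nrgn value was not tested. Among 8 genes of thyroid hormone transport and binding, Ttr was called after PSD in all mice, at 7.06 (adjusted p = 0.0436), and between PSD mice with and without restraint, at -7.35 (adjusted p = 0.0116), on the 1 library of female PSD 3. Between the sexes, where 14.9% of all genes tested were called, 6 of 12 thyrotrope hormone and factor genes were called, 4 lower in females with Gata2 at -0.88, and 5 of 12 signal genes, 3 lower in females with Igsf1 at -0.998 (adjusted p = 9.24e-06 and 2.11e-11).

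Likeness of pattern was read over the 28 mice as the Pearson correlation of log2 CPM, each mouse set against the mean of its sex, among 15462 genes with a mean of at least 1 CPM. Libraries and depth are shared by all points, differences between treatments were left in, and these values are descriptions. Tshb was most like AK015900 (r = 0.79), Trhr (0.72) and Slc37a1 (0.70), and Cga stood at 0.49. Trhr was most like Map3k15 (0.84), Ddx26b (0.78) and Ift80 (0.77), and Dio2 was most like AK035770 (0.84), Chd1l (0.69) and Trhr (0.69). Trhr thus stood among the 3 genes most like Tshb and most like Dio2, and r between Tshb and Dio2 was 0.47. Dio1 was most like Pkib (0.92), Pomc (0.91) and 2610305D13Rik (0.90), and Pomc encodes a precursor that both corticotropes and melanotropes process. Thra was most like Pnkd (0.83) and Aatk (0.83), and Thrb was most like C77370 (0.90), Dusp22 (0.89) and Lrrfip2 (0.88). Thrb had r of -0.55 with Dio1, -0.40 with Thra and -0.15 with Tshb.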

How the data were processed

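MapSplice alignments of 76 bp read pairs to mm10 were turned by the authors into gene counts with HTSeq 0.9.1, in the mode intersection-nonempty, over UCSC models. The deposited values used here are counts per gene and mouse, not normalized. A second deposited table, of normalized counts, was not used. Each mouse was given its sex and treatment from the labels.

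Genes kept by edgeR's filterByExpr over the groups were tested with the quasi-likelihood test in edgeR 4.0.16 (R 4.3.3) with TMM factors, 18059 genes in females, 18271 in males and 18936 in all mice. Models held PSD, restraint and their interaction, plus sex for all mice, or 1 mean per sex and treatment for differences between the sexes. P-values were adjusted over all genes tested. Calls needed an adjusted p not above 0.05 and a change past the 25% limit. Intervals use the t distribution of the fit. Log2 CPM used a prior count of 2.

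The 6 members, the 66 pathway genes and the markers were chosen with earlier results of these data known. Named pathway genes are those called, up to 5 per comparison in order of p, and the gene with the smallest p of a list in all mice, of which only some are printed. The 3 most alike genes by Pearson r were taken for each member. Some items that these rules select are not reported here. Replicate numbers are of different animals. Deviations of same-numbered mice correlated between -0.43 and 0.46, which does not settle whether they shared a batch. All 37 pairs within groups differed beyond counting noise (lowest chi-square per degree of freedom 6.43). The tests were tested on simulated data. Alternatives were DESeq2 (Wald test), its size factors in edgeR, other filters, only the groups compared, a replicate block, 2 tissue scores as covariates, the robust option, no fold limit, other gene lengths, another scaling and prior for likeness, and each mouse left out. Leaving out 3 mice together, and male control 1 for likeness, was chosen after seeing the data.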

Additional observations from a re-analysis of the deposited data

Results flagged for a closer look

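In groups of 4 mice, a mouse was set aside for a closer look where its gap to the nearest other mouse exceeded Dixon's critical value. Of 70 groups tested over the 6 genes, Cga, Nr1d1, 4 other called regulators and 2 marker sums, 6 had such a mouse. Chance flags about 5% of groups, 3.5 of 70, where genes are not chosen on the same values. The called regulators were so chosen, Ttr through PSD female 3, so this share does not apply to them. Tshb had 399 CPM in PSD female 2 where the other 3 PSD females had 205 to 226 CPM. Trhr had 8.40 CPM in PSD + restraint female 2 against 6.84 to 7.08 CPM in the others. Dio2 had 97.5 CPM in control female 3 against 71.0 to 75.3 CPM. Cga had 3899 CPM in restrained female 4 against 2938 to 3062 CPM. Ttr had 5335 CPM in PSD female 3 against 3.11 to 5.07 CPM. The lactotrope marker Prl had 170264 CPM in PSD female 4 against 96746 to 108513 CPM, and the same mouse had the highest Thrb of its group.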

How the results depend on the processing

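Of 3828 results of single genes under an alternative, 3801 kept their side of the threshold, 15 lost a call, 12 gained one and none that had an unadjusted p of at most 0.05 changed sign, while 176 others did. Most of these results were uncalled to begin with, so their share says little about the calls. Calls that were lost were those of Tshb between the sexes and of Thrb after PSD + restraint in all mice. After PSD + restraint in females the number of the 6 genes called went from 0 to 1 (Thrb) with only the groups compared, with the replicate block and with DESeq2, and lay between 0 and 1 when single mice were left out. After PSD in females it went from 0 to 1 (Thrb) with DESeq2 and lay between 0 and 1 when single mice were left out. After PSD + restraint in all mice it went from 1 to 0 with the neurointermediate lobe score as a covariate and to 2 (Dio1 and Thrb) with DESeq2, and lay between 0 and 2 when single mice were left out. Between females and males the number went from 3 to 2 with the replicate block, with the forebrain score and without the 3 mice that stood apart. The cause of these moves was not tested. Where 1 restrained male was left, it was assumed to vary like the other groups.

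Calls over all genes moved by over 1.5 times in several contrasts. DESeq2 called 405 genes after PSD in females against 5 in edgeR, 190 against 98 after restraint, 633 against 398 after PSD + restraint, 90 against 6 for PSD among restrained females and 276 against 170 for restraint among PSD females. In males it called 76 against 1 after PSD, 99 against 54 after restraint, 111 against 1 for PSD among restrained mice and 173 against 52 for restraint among PSD mice, and in all mice 244 against 127 after PSD and 64 against 18 for PSD among restrained mice. With the neurointermediate lobe score, calls after PSD + restraint in females were 97 and after PSD in all mice 31, and without the 3 mice that stood apart calls after PSD in all mice were 16. With only the groups compared, calls after PSD were 0 in females and 48 in all mice, and after restraint in females 54. Without the fold limit, 6510 genes passed between females and males and 2064 after PSD + restraint in all mice.

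Correlations between same-numbered mice had both signs, from -0.43 to 0.46 in females, and those of differently numbered females ran from -0.47 to 0.60. These ranges cannot decide whether mice of a number shared a batch or cage. With the replicate block, Thrb after PSD + restraint in females stood at -0.74 (edgeR adjusted p = 0.0403), Tshb between females and males at -0.33 (adjusted p = 0.0941), and Cga at 0.50 between PSD females with and without restraint (adjusted p = 0.0567) and at -0.48 after PSD in all mice (adjusted p = 0.0515). Calls over all genes with the block were 24 after PSD in females, 380 after PSD + restraint in females, 4 after restraint in males, 147 after PSD + restraint in males, 6 for restraint among PSD males and 40 after PSD in all mice. Of the 18 most alike genes, 13 stayed with library size alone, 17 with a prior count of 0.5 and 13 without male control 1. With mean transcript length the order by level held over all mice, whereas in males Thrb and Dio2, and Dio1 and Trhr, changed places. With 2 restrained males, and Dio1 read from as few as 51 counts, intervals of male and Dio1 values were wide.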
